A study of Mus musculus with 8 samples.

Results

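The 7 genes for cyclin-dependent kinase (CDK) inhibitors were examined in ATAC-seq of hematopoietic stem and progenitor cells. ATAC-seq reads open chromatin from the cuts of the transposase Tn5, and peaks mark places where cut fragments pile up. All peaks that overlapped the body of Cdkn1a, Cdkn1b, Cdkn1c, Cdkn2a, Cdkn2b, Cdkn2c or Cdkn2d, or the 20000 bp on either side, were taken. This gave 224 of the 501728 peaks listed on chromosomes 1 to 19 and X, which merged across libraries into 49 of 123260 regions. Of these 49 regions, 17 had a peak summit within 3000 bp of a transcription start site (TSS) of the inhibitor gene itself, 18 within that distance of the TSS of another gene, and 14 were distal. The windows of Cdkn2a and Cdkn2b overlap, and all 8 regions of the Cdkn2b window are also in that of Cdkn2a.

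The cells came from the bone marrow of female mice aged 4.5 months on a mixed 129Sv4/Jae x B6 background. LSK+ cells (Lin-, SCA-1+, c-KIT+) contain the hematopoietic stem cells, and LSK- cells (Lin-, SCA-1-, c-KIT+) are more committed myeloid progenitors. The mice were either wild type (WT) or XistΔ/Δ, that is, they lacked both copies of Xist after removal of the floxed gene by a Cre under the blood-specific Vav promoter. The deletion therefore covers the whole hematopoietic system, and the sorted fractions are mixtures of cell states. Each of the 4 groups had 2 libraries of about 10000 cells. The paper calls the 2 libraries of a group biological replicates, but nothing in the labels says that they came from separate mice. The p-values therefore rest on the spread between these libraries only. In the limma tests below, that spread came from a trend over all regions and not from each region's own libraries.

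The lists held 29829 to 91590 peaks, and the genome-wide background pileup, which rises with sequencing depth, ran from 0.482 to 3.87 fragments. Matched by cell type and replicate, the XistΔ/Δ list was the longer one in 4 of 4 pairs. The replicate number went with the sequencing run and platform, so run and replicate cannot be told apart, and the number was kept as a block in the tests. At the promoters of marker genes, 7 of 9 LSK- markers had a higher mean rank in LSK- cells and 5 of 8 LSK+ markers had a higher mean rank in LSK+ cells. The promoter of Ly6a, which encodes the SCA-1 protein used in the sort, carried a peak in 1 of 8 libraries, from LSK- cells. Among genes of lineage-positive cells, Itgam had a promoter peak in 5 libraries, and Cd3e, Cd4, Cd8a, Cd79a and Ly6g had none.

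CDK inhibitors hold cells back from entering or passing through the division cycle. Members of the CIP/KIP family, Cdkn1a (Cip1), Cdkn1b (Kip1) and Cdkn1c (Kip2), bind a broad range of cyclin and CDK complexes. Members of the INK4 family, Cdkn2a (Ink4a), Cdkn2b (Ink4b), Cdkn2c (Ink4c) and Cdkn2d (Ink4d), bind Cdk4 and Cdk6 and keep them from cyclin D. Hematopoietic stem cells are mostly quiescent, and Cdkn1c in particular is known for its part in that state. Cdkn2a has separate start sites for Ink4a and for Arf, a protein read in another frame that stabilizes p53 and is not itself a CDK inhibitor. Cdkn1a is a classical target gene of p53.

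The promoter sequences are shown first because the results turn on how differently these GC-rich stretches were opened. Each stretch lies within 100 bp of the median summit of a region, is written 5′ to 3′ in the direction of the gene from GRCm38.p6 of RefSeq (mm10), and leaves out bases of untranslated exons of RefSeq transcripts. The summit of the Cdkn2c promoter region lies inside its untranslated first exon, so that sequence is not shown. Capitals mark matches to the motifs named below.
Cdkn2d upstream of the start, chr9:21291422-21291480 (-): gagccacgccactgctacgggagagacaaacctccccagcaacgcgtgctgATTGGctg
Cdkn1b upstream of the start, chr6:134920275-134920400 (+): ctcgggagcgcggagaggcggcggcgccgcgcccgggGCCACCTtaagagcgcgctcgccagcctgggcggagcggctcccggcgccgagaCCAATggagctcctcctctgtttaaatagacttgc
Cdkn1a upstream of the start, chr17:29093647-29093768 (+): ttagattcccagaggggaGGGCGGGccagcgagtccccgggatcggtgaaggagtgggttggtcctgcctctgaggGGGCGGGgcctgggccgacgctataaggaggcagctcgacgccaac
Cdkn1a first intron, chr17:29095447-29095646 (+): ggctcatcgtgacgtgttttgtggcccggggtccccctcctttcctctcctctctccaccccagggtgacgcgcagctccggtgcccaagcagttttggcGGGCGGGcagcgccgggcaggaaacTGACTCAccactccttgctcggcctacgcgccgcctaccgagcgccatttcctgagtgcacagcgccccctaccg
Cdkn2b first coding exon, chr4:89310646-89310797 (-): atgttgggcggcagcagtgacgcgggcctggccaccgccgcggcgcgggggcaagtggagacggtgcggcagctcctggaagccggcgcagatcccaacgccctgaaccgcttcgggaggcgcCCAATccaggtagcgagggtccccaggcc
Cdkn2a upstream of the Arf start, chr4:89294837-89295036 (-): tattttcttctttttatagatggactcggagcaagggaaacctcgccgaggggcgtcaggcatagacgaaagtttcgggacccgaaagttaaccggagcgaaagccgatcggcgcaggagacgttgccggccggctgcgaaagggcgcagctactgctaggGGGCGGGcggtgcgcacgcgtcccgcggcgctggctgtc
Cdkn2a upstream of the Ink4a start, chr4:89282205-89282404 (-): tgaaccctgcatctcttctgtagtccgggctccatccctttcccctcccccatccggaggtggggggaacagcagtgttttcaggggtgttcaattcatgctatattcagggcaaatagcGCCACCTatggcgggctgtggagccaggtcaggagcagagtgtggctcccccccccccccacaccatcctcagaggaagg

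The Cdkn2b stretch starts at the start codon of exon 1 and ends in the first intron, and the Cdkn1a intronic stretch lies downstream of the main start. In windows of 300 bp around the summits, the 7 promoter regions had a GC content between 63.7% for Cdkn2d and 74% for Cdkn2c, against a median of 63.3% over 13221 promoter regions of protein-coding genes. They held between 21 CpG in Cdkn2d and 41 in Cdkn2a, against a median of 23. Cdkn2d, the lowest of the 7 in GC and in CpG, carried the strongest peak of the 7 by −log10 p.

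Motifs were searched on both strands of the same 300 bp windows, overlapping matches included. The SP1 motif GGGCGGG was found in 5 of the 7 promoter regions (Cdkn1a, Cdkn1c, Cdkn2a, Cdkn2c and Cdkn2d) and in 46.1% of all promoter regions. The CCAAT motif was found in 5 of the 7 (Cdkn1b, Cdkn1c, Cdkn2a, Cdkn2b and Cdkn2d) and in 36.1% of all. The AP-1 motif TGANTCA was found in the intronic region of Cdkn1a alone among the 7 (4.76% of all promoter regions), and the CTCF core AGGTGGC in Cdkn1b alone (7.75%). None of the 7 windows held the FOXO motif, spelled GTAAACA and found in 2.16% of all promoter regions. None held the GATA motif, which was searched as AGATAA and found in 5.61%. The same was true of the ETS motif ACAGGAAG, present in 3.63% of all promoter regions, and of the PU.1 motif GAGGAAGT, present in 3.97%. The RUNX motif TGTGGTTT, at 1.91% of all promoter regions, and the E-box, with the letters CAGCTG and at 16.5%, were also missing from the 7 windows. So were the E2F motif TTTCGCGC, at 0.65%, and the p53 motif, of which only the short core ACATGT was searched, at 1.99%. Of the 25 member regions with peaks in at least 4 libraries, 2 held the p53 core, against 6.21% of all such regions. They were an intronic region of Cdkn1a, 1271 bp from another annotated TSS, and the region 3121 bp upstream of Cdkn1b. The CTCF match printed upstream of the Ink4a start lies in a region outside the 7. All of these are matches of letters in short windows and say nothing of whether a factor binds.

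**Figure D1:**
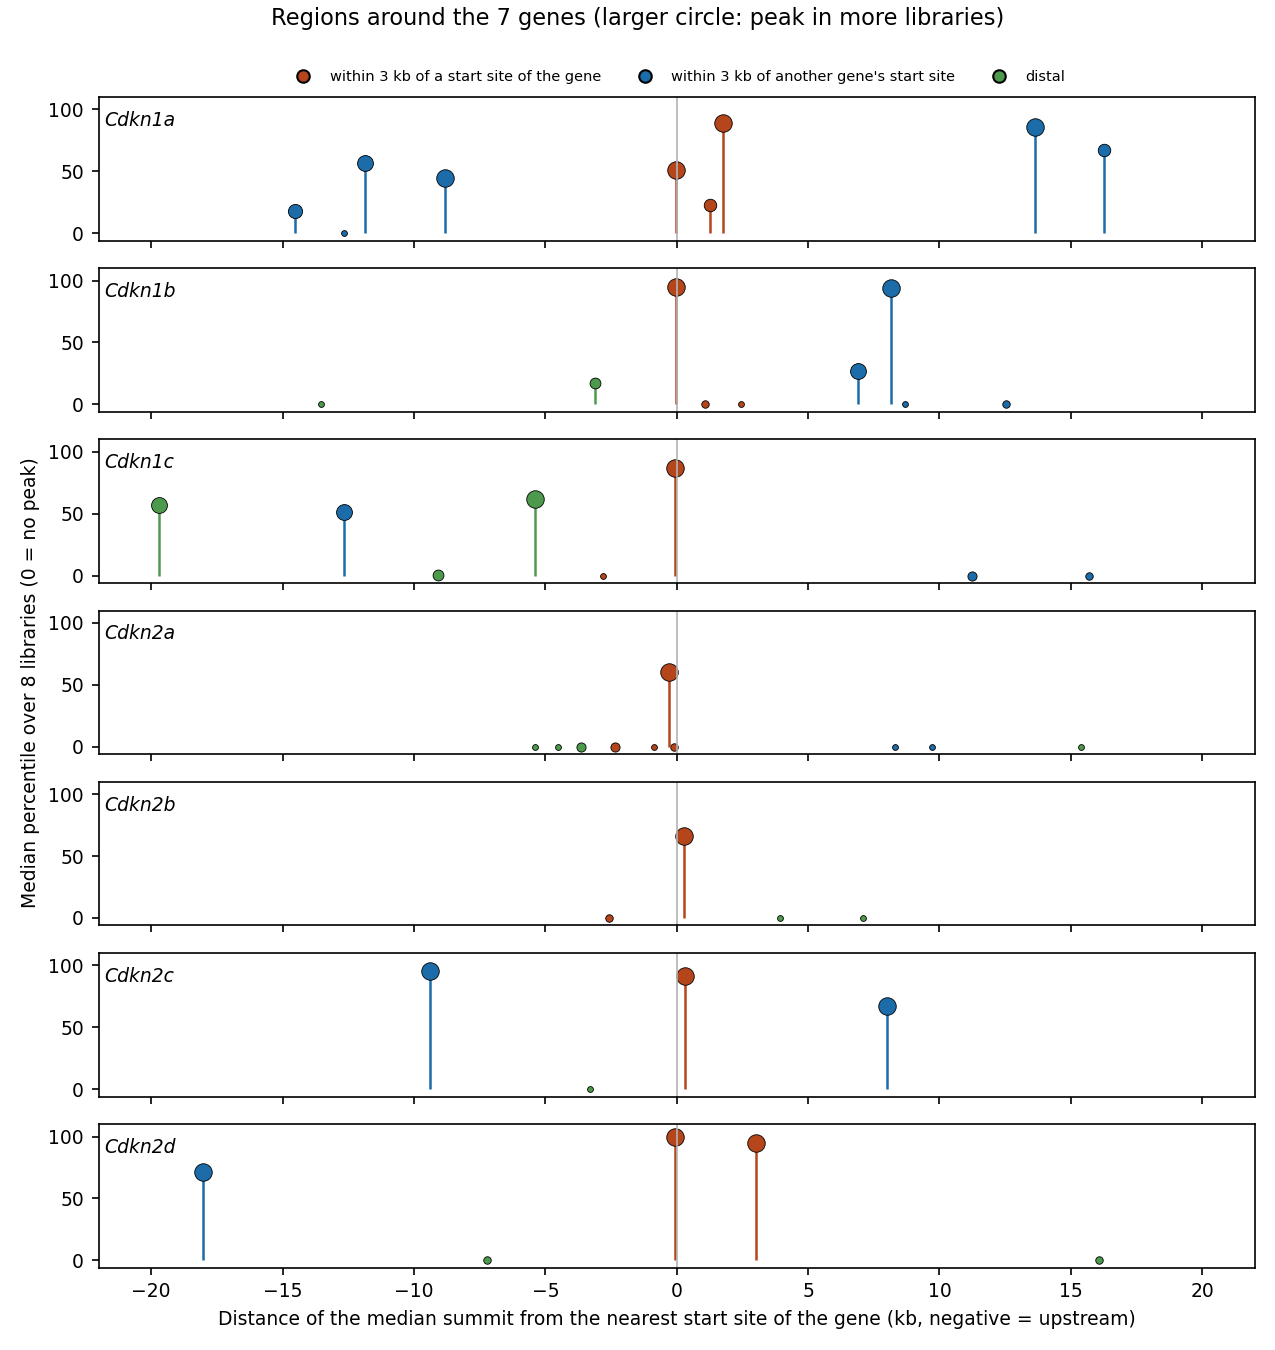
Regions around each of the 7 genes: the horizontal axis is the distance in kb of the median summit from the nearest TSS of the gene, and the vertical axis is the median percentile of the region over 8 libraries, with 0 for no peak. Colour gives the class of the region and circle size the number of libraries with a peak; the Cdkn2d promoter stands at 99.5 and the Ink4a start of Cdkn2a at 0.

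The strength of a peak was expressed as its percentile within its own library, ranked by −log10 p, with 100 for the strongest peak and 0 where no peak was listed. By the median over 8 libraries, the promoter regions fell in the order Cdkn2d (99.5), Cdkn1b (95.1), Cdkn2c (91.2), Cdkn1a (88.7), Cdkn1c (86.6), Cdkn2b (66.2) and Cdkn2a at the Arf start (60.2). The Cdkn1a value is that of a region in its first intron. The region over the main Cdkn1a start had a median of 51.1, below all 7 of these, so the place of Cdkn1a depends on the region chosen. This order is that of −log10 p, and it changed when peaks were ranked by fold over the local background. By fold, Cdkn2d stood at percentiles of 61.5 to 84.3 and Cdkn1b at 59.5 to 84.8, with Cdkn1b the higher one in each replicate 2 library. By −log10 p, Cdkn2d ranked above Cdkn1b in 8 of 8 libraries, by 4.4 ± 1.66 percentile points (SD over 8 libraries). Cdkn1b ranked above Cdkn2c in 7 of 8 (5.15 ± 5.5 points), with a mean gap smaller than its spread. Cdkn2c and Cdkn1a did not differ beyond their spread (0.862 ± 4.02 points, higher in 4 of 8), nor did Cdkn1a and Cdkn1c (4.4 ± 8.3 points, 5 of 8). Cdkn1c ranked above Cdkn2b in 7 of 8 libraries (20.5 ± 15.6 points). Cdkn2b and Cdkn2a did not differ beyond their spread (12.6 ± 23.8 points, 6 of 8).

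**Figure D2:**
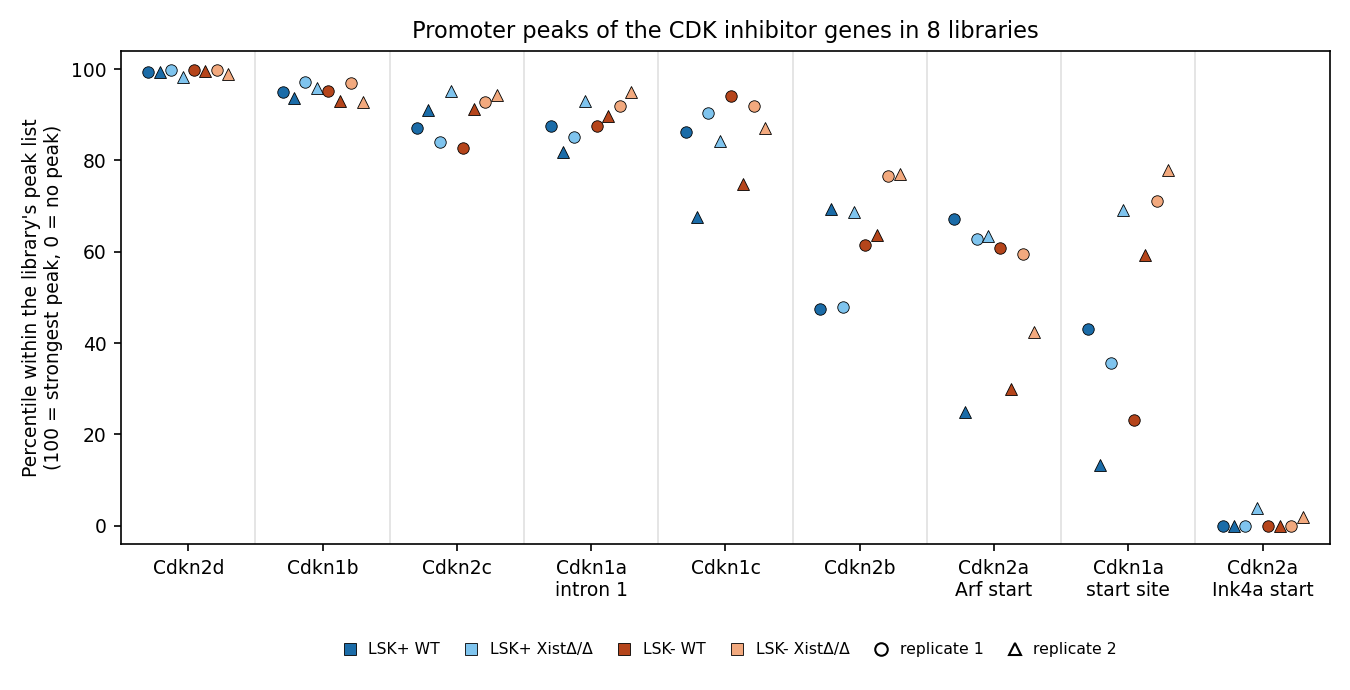
Percentile of the promoter peaks (vertical axis, 0 to 100, 0 for no peak) in each of 8 libraries, with colour for the group and shape for the replicate. The 8 points of Cdkn2d lie between 98.3 and 99.8, those of the Arf start of Cdkn2a between 24.9 and 67.2, and the Ink4a start has peaks in 2 libraries.

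Cdkn1a, the p53-induced inhibitor, had 9 regions, 8 of them in at least 4 libraries, the most of the 7 genes. Its promoter region by the rule used here (most libraries, then highest median) was not at the main start but in the first intron, with a median summit 1766 bp downstream of the TSS (chr17:29094770-29095894). With replicate 1 given first here and in all that follows, this intronic region stood at percentiles 87.6 and 81.8 (LSK+ WT), 85 and 93 (LSK+ XistΔ/Δ), 87.5 and 89.8 (LSK- WT) and 91.9 and 94.9 (LSK- XistΔ/Δ). LSK- XistΔ/Δ lay above both WT groups and overlapped LSK+ XistΔ/Δ. The lowest value was that of LSK+ WT replicate 2, the library with the shortest list.

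The region over the main Cdkn1a start (chr17:29093532-29094011), which also covers the first exon of the transcript AC167363.2, was weaker and far more variable. It gave percentiles of 43 and 13.2 (LSK+ WT), 35.6 and 69.1 (LSK+ XistΔ/Δ), 23.2 and 59.2 (LSK- WT) and 71 and 77.9 (LSK- XistΔ/Δ). Both LSK- XistΔ/Δ libraries lay above all others, and the 3 other groups overlapped. The intronic region outranked the start in all 8 libraries. Another region inside the gene, in an intron 1271 bp from another annotated TSS (chr17:29099058-29099405), had a peak in 5 libraries, at percentiles of 21.9 to 49.

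Upstream of Cdkn1a, 3 regions seen in at least 4 libraries lay on the side of Trp53cor1, the long noncoding RNA gene also called lincRNA-p21, whose start is upstream of Cdkn1a. The one over the Trp53cor1 start (chr17:29078658-29079367) had percentiles of 23.3 and 0 (LSK+ WT), 35.2 and 59 (LSK+ XistΔ/Δ), 60.7 and 54.1 (LSK- WT) and 64.3 and 76.4 (LSK- XistΔ/Δ). Every LSK- library lay above the LSK+ libraries of its genotype, with no overlap. Between the 2 genes, 8809 bp upstream of the nearest Cdkn1a TSS (chr17:29081860-29082463), the order was the other way: 62.6 and 28.9 (LSK+ WT) and 62.9 and 55.5 (LSK+ XistΔ/Δ), against 30.3 and 17.4 (LSK- WT) and 44 and 45.7 (LSK- XistΔ/Δ). This intergenic region was higher in LSK+ cells in 4 of 4 pairs of libraries matched for genotype and replicate, although the WT ranges overlapped. The cell types differed with the same sign in 4 of 4 pairs in 20103 of all 60447 regions with peaks in at least 4 libraries. The remaining one, in an intron of Trp53cor1 (chr17:29076206-29076518), had peaks in 6 libraries, none of them LSK+ WT, at percentiles of 3.94 to 40.

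Downstream of Cdkn1a, the region at +13620 bp (chr17:29111234-29111936), which is 2625 bp from a start of the Rab GTPase gene Rab44, ranked high in every library. Its percentiles were 87.3 and 55.5 (LSK+ WT), 92.8 and 83.9 (LSK+ XistΔ/Δ), 93.9 and 72.4 (LSK- WT) and 89.8 and 82 (LSK- XistΔ/Δ). The region at the Rab44 start (chr17:29113727-29114305) had no peak in 3 of 4 LSK+ libraries and a percentile of 67.4 in the other, LSK+ XistΔ/Δ replicate 2. All 4 LSK- libraries had it, at 66.6 and 73.9 (WT) and 74.9 and 86.6 (XistΔ/Δ). The groups did not overlap within a genotype, but the LSK+ value of 67.4 was above the lowest LSK- WT value.

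Cdkn1b, whose product restrains Cdk2 and is removed by Skp2 as cells enter the cycle, had an even promoter. The region over its start (chr6:134920024-134921059) stood at 95 and 93.6 (LSK+ WT), 97.1 and 95.9 (LSK+ XistΔ/Δ), 95.2 and 93.1 (LSK- WT) and 97 and 92.7 (LSK- XistΔ/Δ). By percentile, LSK+ XistΔ/Δ lay above both WT groups, and LSK- XistΔ/Δ overlapped the 3 other groups. By summit pileup, the log2 difference of XistΔ/Δ minus WT was -0.15 in LSK+ cells and -0.21 in LSK- cells, and neither passed (limma). Replicate 1 was above replicate 2 in each of the 4 groups.

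A region almost as strong lay 8160 bp downstream, 419 bp from the start of Lockd, a long noncoding RNA gene next to Cdkn1b (chr6:134927791-134929007), with percentiles of 90.9 to 97.6 over 8 libraries. Beside it, at +6900 bp (chr6:134926957-134927710), a weaker region stood at 21.1 and 0 (LSK+ WT), 30.8 and 23 (LSK+ XistΔ/Δ), 55.3 and 22.8 (LSK- WT) and 51.4 and 44.6 (LSK- XistΔ/Δ). Each LSK- library lay above the LSK+ libraries of its genotype. Upstream, a distal region at -3121 bp (chr6:134916663-134917388) had peaks in 4 libraries, all of them replicate 1, at percentiles of 33.8 to 57.2, and in no library of replicate 2. Its presence went with the replicate number in both cell types and both genotypes. The replicate 1 list was also the longer one in every group, so run, platform and list length cannot be told apart. Within replicate 1, the region stood higher in XistΔ/Δ than in WT, at 57.2 against 39.8 in LSK+ cells and 52 against 33.8 in LSK- cells. The XistΔ/Δ lists were the longer ones, and 95.3% of all regions had a higher mean percentile in XistΔ/Δ. By fold over the local background, the region stood at 4.27 against 3.82 in LSK+ cells and at 3.21 against 3.31 in LSK- cells.

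Cdkn1c, the imprinted inhibitor linked to stem cell quiescence, had a narrow promoter region of 461 bp (chr7:143460832-143461292). Its percentiles were 86.2 and 67.7 (LSK+ WT), 90.3 and 84.2 (LSK+ XistΔ/Δ), 94.2 and 74.8 (LSK- WT) and 91.9 and 87 (LSK- XistΔ/Δ). The LSK- library was the higher one in 4 of 4 matched pairs, while the ranges of the cell types overlapped within each genotype. The 2 lowest values were those of the WT replicates 2.

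Upstream of Cdkn1c, 4 regions had peaks in at least 4 libraries. The one at -5404 bp (chr7:143466191-143466577) stood at 72.9 and 21.6 (LSK+ WT), 71.7 and 62.7 (LSK+ XistΔ/Δ), 65 and 17.6 (LSK- WT) and 61.6 and 60.2 (LSK- XistΔ/Δ). By percentile, it was the higher one in LSK+ cells in 4 of 4 matched pairs, the opposite direction to the promoter. A shared sign in 4 of 4 pairs was seen in 20103 of 60447 regions. By summit pileup the region was higher in LSK+ cells in 3 of 4 pairs. Neither it nor the promoter passed the test described below (limma adjusted p = 0.536 and 0.222). The region at -9092 bp (chr7:143469886-143470238) had a peak in 3 LSK- libraries and in LSK+ XistΔ/Δ replicate 1, at percentiles of 1.76 to 58.9. The 2 others were at the start of Slc22a18, an imprinted solute carrier gene, and in its intron, each with peaks in 7 libraries at percentiles of 31.4 to 67.9 and of 44.5 to 63.3.

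**Figure D3:**
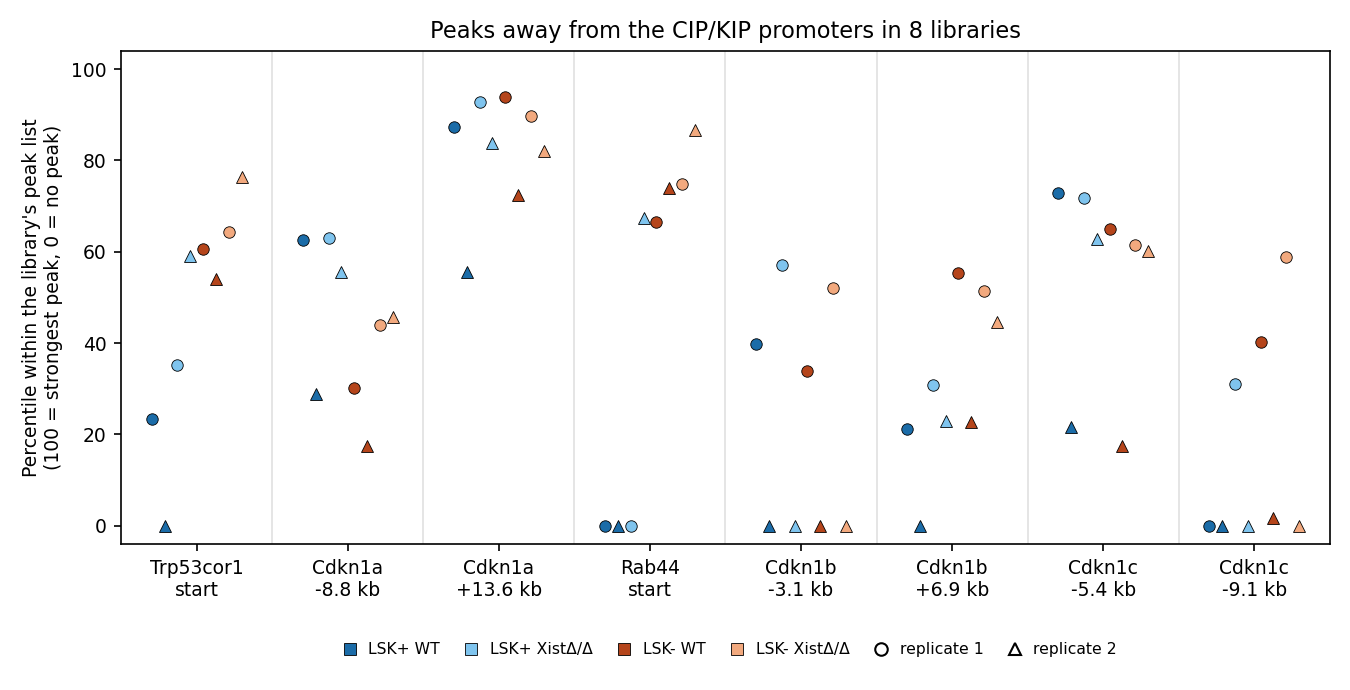
Percentile (vertical axis, 0 for no peak) of 8 regions away from the CIP/KIP promoters in each library, with colour for the group and shape for the replicate. At the Trp53cor1 and Rab44 starts the LSK- points lie above the LSK+ points of the same genotype, and at -3.1 kb from Cdkn1b the 4 points above 0 are all replicate 1.

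The Cdkn2a and Cdkn2b locus was the least open of the 7. In the Cdkn2a window, 14 regions were found, of which 8 were seen in 1 library each and only those at the Arf start and at Cdkn2b in at least 4. The Arf start (chr4:89294547-89295339) stood at 67.2 and 24.9 (LSK+ WT), 62.8 and 63.4 (LSK+ XistΔ/Δ), 60.8 and 29.9 (LSK- WT) and 59.5 and 42.4 (LSK- XistΔ/Δ). Both WT replicates 2, the shortest lists, were the lowest.

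At the Ink4a start, 113 bp upstream of the TSS (chr4:89282035-89282409), peaks were listed in LSK+ XistΔ/Δ replicate 2 and LSK- XistΔ/Δ replicate 2 alone. They were at percentiles 3.97 and 1.95, each with a summit pileup of 8 fragments, against pileups of 38 and 21 at the Arf start in the same libraries. In the other 6 libraries no peak was detectable at the authors' threshold, and among these was the deepest one, LSK- XistΔ/Δ replicate 1.

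The Cdkn2b promoter region (chr4:89310341-89311379), with its summit in the coding part of exon 1, stood at 47.5 and 69.4 (LSK+ WT), 47.8 and 68.7 (LSK+ XistΔ/Δ), 61.5 and 63.7 (LSK- WT) and 76.7 and 77 (LSK- XistΔ/Δ). LSK- XistΔ/Δ held the 2 highest values, and the 3 other groups overlapped. At Cdkn2b replicate 2 was above replicate 1 in each of the 4 groups, the reverse of Cdkn1b in this rank. Ranked by fold over the local background, replicate 2 was the higher one at both genes in each of the 4 groups.

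Cdkn2c had a merged promoter region of 2392 bp (chr4:109665028-109667419) that covers both of its starts. In 6 of 8 libraries it joined 2 separate peaks, of which the weaker, toward the downstream start, stood at 1.21 to 71.4. The percentiles of the stronger peak were 87 and 91.1 (LSK+ WT), 83.9 and 95.2 (LSK+ XistΔ/Δ), 82.7 and 91.3 (LSK- WT) and 92.8 and 94.3 (LSK- XistΔ/Δ). Its neighbour Faf1, which encodes a Fas-associated factor, had a promoter region at 93.1 to 97.3, above that of Cdkn2c in all 8 libraries. The start of the noncoding transcript 9630013D21Rik (chr4:109656889-109658324) stood at 29.7 to 75.8.

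Ranked by −log10 p, Cdkn2d had the strongest promoter of the family (chr9:21290916-21291800), at 99.4 and 99.4 (LSK+ WT), 99.7 and 98.3 (LSK+ XistΔ/Δ), 99.8 and 99.5 (LSK- WT) and 99.8 and 98.9 (LSK- XistΔ/Δ). Its summit pileups ran from 207 to 784 fragments. A second region counted within 3000 bp of the gene's start (chr9:21287659-21288614, percentiles 91.4 to 96.9) has its summit 154 bp from the start of Kri1, a ribosome biogenesis gene. A region in an intron of Ap1m2, which encodes a clathrin adaptor subunit, lay 18015 bp upstream (chr9:21308996-21309690) at 27.3 to 87.3. Another region in that gene, at -7206 bp (chr9:21298327-21298753), was listed in both LSK+ XistΔ/Δ libraries, at 42.4 and 43.8, and in no other.

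The comparison of LSK+ with LSK- cells asked whether the inhibitor genes are differently accessible in the fraction that holds the quiescent stem cells. The test used the summit pileup, the number of fragments over the summit, on a log2 scale, and covered the 16 member regions that had a peak in all 8 libraries. In such sorted fractions, a change in the share of cells with a region open and a change in opening per cell cannot be told apart. None of the 16 passed (limma, adjusted p under 0.05), and 4 had an unadjusted p under 0.05, against 46.2% of all regions. Over all 21360 regions tested, 36.3% passed, and over the 10536 promoter regions among them 31.1%. The median difference of the 16 was -0.19 (LSK+ minus LSK-, range -0.46 to 0.44), against -0.12 over all regions and -0.24 over the 10536 promoter regions. Of the 16, 13 were below 0, the side on which the medians of all regions and of promoter regions also lay. The standard errors of the 16, here and below taken from the trend of the spread over all regions, were 0.16 to 0.22. In absolute size the member regions had a median difference of 0.25, all regions 0.33, and the regions that passed 0.64.

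The nearest to the threshold were 3 regions of Cdkn1a, all lower in LSK+ cells. The start differed by -0.46 ± 0.2 (SE, n = 4 libraries per cell type; limma adjusted p = 0.0536). The intronic region differed by -0.37 ± 0.16 (limma adjusted p = 0.0581). LSK+ was lower in pileup in 4 of 4 matched pairs, though higher by percentile in 1 of them. The region at +13620 bp differed by -0.39 ± 0.17 (limma adjusted p = 0.0596). The region at -8809 bp had the largest difference toward LSK+ cells, 0.44 ± 0.22 (limma adjusted p = 0.106), higher in 4 of 4 pairs.

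Whether these Cdkn1a regions passed depended on single libraries. The start passed without LSK+ WT replicate 1 (-0.69, limma adjusted p = 0.0082) or without LSK- WT replicate 1 (-0.62, limma adjusted p = 0.0275), and the region at +13620 bp without LSK- XistΔ/Δ replicate 1 (-0.5, limma adjusted p = 0.0232). The region at -8809 bp passed without LSK- XistΔ/Δ replicate 2 (0.6, limma adjusted p = 0.0432). Scaling the libraries by background pileup in place of the median of their peaks turned the start, the intronic region and the region at +13620 bp to values above 0 (0.0157, 0.11 and 0.0853). It also raised the median over all regions from -0.12 to 0.36 and the share of calls that were higher in LSK+ cells from 45.5% to 96.2%.

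For the other promoters the differences, LSK+ minus LSK-, were -0.33 for Cdkn2d (95% interval -0.77 to 0.1), -0.25 for Cdkn1c (-0.58 to 0.07), -0.22 for Cdkn2b (-0.62 to 0.19), -0.17 for Cdkn2c (-0.48 to 0.15), -0.06 for Cdkn1b (-0.4 to 0.27) and 0.3 for the Arf start of Cdkn2a (-0.13 to 0.74), with limma adjusted p between 0.222 and 0.796. By pileup, Cdkn1c and Cdkn2d were lower in LSK+ cells in 4 of 4 pairs. The Arf start was higher in LSK+ cells in 4 of 4 pairs by pileup and in 3 of 4 by percentile. Background scaling raises every difference by the same amount, which turned the 5 negative values positive and brought the Arf start to 0.78 (limma adjusted p = 0.0347). Each of the intervals above leaves room for a difference of either sign.

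**Figure D4:**
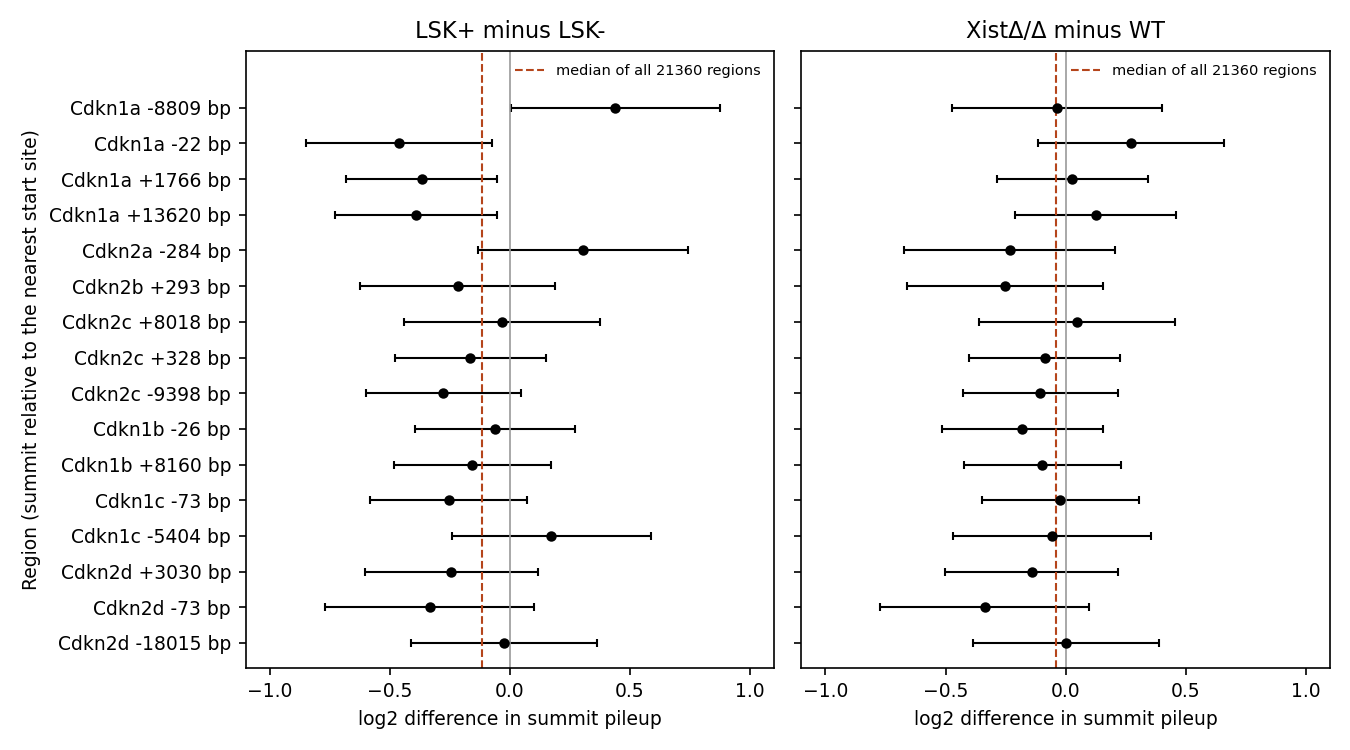
Log2 difference in summit pileup (horizontal axes) for the 16 member regions with a peak in all 8 libraries, LSK+ minus LSK- on the left and XistΔ/Δ minus WT on the right. Points are limma estimates, bars are 95% intervals (1.96 SE), and the dashed line is the median of all regions tested; the 16 estimates lie between -0.46 and 0.44 on the left and between -0.34 and 0.27 on the right.

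By rank alone, 25 member regions with peaks in at least 4 libraries could be compared. In 3 of them (12%) the 2 libraries of one cell type lay above the 2 of the other in both genotypes, against 18% of all 60447 such regions, a share no higher than the background. All 3 were higher in LSK- cells, as were 7195 of the 10909 regions that separated in all, and all 3 are the neighbouring regions described above: the Trp53cor1 start, the Rab44 start and the region at +6900 bp of Cdkn1b. Their sequences, shown for these 3 because no promoter of the 7 genes separated in this way, are written in the direction of the inhibitor gene.
Trp53cor1 start, chr17:29079009-29079208 (+): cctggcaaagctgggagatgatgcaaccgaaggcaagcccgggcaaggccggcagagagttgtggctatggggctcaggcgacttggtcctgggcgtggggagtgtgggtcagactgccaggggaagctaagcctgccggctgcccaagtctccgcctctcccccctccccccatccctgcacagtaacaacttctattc
Rab44 start, chr17:29114057-29114127 (+): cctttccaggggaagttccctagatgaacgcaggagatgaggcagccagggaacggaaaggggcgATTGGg
Region downstream of Cdkn1b, chr6:134927313-134927512 (+): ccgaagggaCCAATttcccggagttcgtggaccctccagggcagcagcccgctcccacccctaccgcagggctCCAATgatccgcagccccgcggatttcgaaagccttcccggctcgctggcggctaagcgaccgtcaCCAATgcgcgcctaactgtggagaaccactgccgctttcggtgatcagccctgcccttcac

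The Rab44 stretch is cut short where its untranslated exon begins. The region downstream of Cdkn1b held 3 CCAAT matches, and the Trp53cor1 stretch none of the 12 motifs.

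The comparison of XistΔ/Δ with WT asked whether loss of Xist, which acts on the X chromosome, goes with a change at these autosomal genes. None of the 16 member regions passed (limma adjusted p between 0.929 and 1), where 0.173% of all regions passed. None of the 16 had an unadjusted p under 0.05, against 5.98% of all regions. The differences (XistΔ/Δ minus WT) had a median of -0.07 against -0.04 over all regions. The largest were -0.34 ± 0.22 (SE) for the Cdkn2d promoter and 0.27 ± 0.2 for the Cdkn1a start, and Cdkn2b differed by -0.25 ± 0.21. The difference between the genotype effects in LSK+ and LSK- cells did not pass for any of the 16 (limma adjusted p of at least 0.932), with 1 region, that at +13620 bp of Cdkn1a, at an unadjusted p under 0.05, and 0% of all regions passed, 1135 of them having an unadjusted p under 0.05.

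By rank, 24 of 25 member regions had a higher mean percentile in XistΔ/Δ, by a median of 12 points, and so had 95.3% of all regions, by a median of 12.7 points. The XistΔ/Δ list was longer in each pair. In 3 of 25 regions (12%) the XistΔ/Δ libraries lay above the WT libraries in both cell types, and in none below. The background was 13.9%, made of 8425 regions higher in XistΔ/Δ and 6 lower. With every list cut to its 29829 strongest peaks, 1 of 18 member regions and 662 of 29561 regions in all lay apart. The 3 were the Trp53cor1 start, the start of 9630013D21Rik beside Cdkn2c and the Kri1 start beside Cdkn2d.

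The 7 windows held 18 to 37 peaks per library, or 3.71 to 6.12 per 10000 listed peaks. LSK+ libraries averaged 4.84 ± 0.795 per 10000 and LSK- libraries 4.56 ± 1.09 (SD, n = 4 each; two-sided exact permutation within genotype, p = 0.611, 36 assignments, smallest possible p 0.0556). XistΔ/Δ libraries averaged 4.28 ± 0.377 and WT libraries 5.13 ± 1.12 (exact permutation within cell type, p = 0.333). The 2 highest shares were those of the WT replicates 2, which had the shortest lists. This design of 2 libraries per group cannot reach p under 0.05.

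Of the 35 member regions with peaks in at least 2 libraries, 7 (20%) were seen in replicate 1 alone, against 21% over all such regions. Only 1 (2.86%), the Ink4a start, was seen in replicate 2 alone, against 0.912% over all such regions. Another 4 regions were seen in LSK+ cells alone and 2 in LSK- cells alone (11.4% and 5.71%, against 10.2% and 15.7% over all regions). In addition 4 were seen in XistΔ/Δ alone and 0 in WT alone (11.4% against 9.53% over all regions, and 0% against 0.186%). The 14 regions seen in a single library stood at percentiles of 0.071 to 38.3 there, and 8 of them lay in the Cdkn2a window.

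A list of 28 genes that act with or upstream of the inhibitors was also examined: cyclins, CDKs, the Rb and E2F families, and regulators such as Trp53, Foxo3 and Myc. Of these, 26 had a promoter region that could be tested. None was higher in LSK+ cells, 12 were lower and 14 did not pass (limma), against 591 higher and 2681 lower of 10536 promoter regions, but under background scaling 2 were higher and 0 lower. The 10 smallest adjusted p-values belonged to Cdk6 (-0.79), which partners cyclin D, to Ccne2 (-0.7) and Ccne1 (-0.7), which encode the E cyclins, to Trp53 (-0.66), the gene for p53, to Rbl1 (-0.65), Mdm2 (-0.58), which removes p53, Cdk2 (-0.59), E2f4 (-0.55), Rb1 (-0.54) and Rbl2 (-0.5). E2f1 (-0.46) and Zbtb17 (-0.47), the gene for Miz1, passed as well. The genes for cyclin D, Ccnd1, Ccnd2 and Ccnd3, differed by -0.18, -0.07 and -0.18 and did not pass; these 5 were named after their values were seen. Without the replicate block, 0 of the 26 passed in either direction. For XistΔ/Δ against WT none of the 26 passed.

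The genes with promoters most like each inhibitor over the 8 percentiles, of 16238 protein-coding genes compared, were found by Euclidean distance. For Cdkn2d they were Mrpl47 and Ndufb5, which share a region and differed from it by a mean of 0.166 points per library. For Cdkn1b they were Homer1 (0.696 points) and Alg10b (0.676), for Cdkn2c Wdr91 (1.35) and Ppa2 (1.42), for Cdkn1a Ago1 (1.08) and Rab32 (1.25), and for Cdkn1c Zfp472 (1.1) and Rps6kb2 (1.17). The 2 weaker promoters had looser matches, 2310061I04Rik (4 points) and Dusp13 (4.9) for Cdkn2b, and Slc35f2 (6.29) and Klk8 (5.13) for the Arf start of Cdkn2a. These are likenesses of rank in 8 libraries whose depth and list length bear on all genes alike.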

How the data were processed

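ATAC-seq peak lists of 8 libraries were used. The authors trimmed reads with Trim Galore, aligned them to mm10 with Bowtie2 2.3.5.1, removed reads of mapping quality under 30 and mitochondrial reads with SAMtools 1.10, and called peaks per library from paired-end fragments with MACS2 2.2.7.1 at q 0.01. No control, duplicate removal or Tn5 shift was stated. The deposited lists gave each peak a fold (a ratio over the local background), −log10 p and −log10 q values, and a score, 10 times the −log10 q without decimals.

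Fold and −log10 p were solved for the summit pileup and local background, within 0.01 of the listed −log10 p for 100% of peaks. The most common background served as a proxy of depth, since read totals were not used here. Regions were merged peaks (at least 1 bp overlap), annotated with GENCODE M21. limma 3.58.1 (R 4.3.3) was fitted to median-centred log2 pileups of the 21360 regions with a peak in all 8 libraries, with 4 groups, the replicate number as a block and Benjamini-Hochberg adjustment. Its prior degrees of freedom were infinite, so the spread came from the trend over all regions. The replicate numbers paired the samples: deviations of same-numbered libraries correlated between groups at 0.457 to 0.782, and the numbers go with the run codes and platforms of the study. The fit was also run on simulated pileups that shared 1 common spread, so the simulation cannot test the use of a pooled spread. It called 80 of 100 regions with a true log2 difference of 1 in size and 100 of 100 with 2. Of 21160 unchanged regions it called 13. Differences as small as those of the member regions were not simulated. Promoter regions were those with a summit within 3000 bp of a TSS, in the most libraries, ties by median percentile.

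The members, gene lists and motifs were chosen with earlier results of these data known. Named were the 7 genes, their neighbours with a TSS in the window, regions in at least 4 libraries, up to 10 listed genes that passed, and the 2 most alike genes per member. In the marker check, Flt3 and Meis1 (LSK+ markers) passed in the direction of the label, as did Epor and Mpo (LSK- markers), while Prtn3, an LSK- marker, passed in the other. Of the genes marking both fractions, Kit, Cd34, Spi1 and Runx1, none passed. A gene of the marker lists and a promoter sequence are not reported here.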

Additional observations from a re-analysis of the deposited data

How the results depend on the processing

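LSK+ minus LSK- differences of the member regions were sensitive to scaling. Of the 16 regions tested, 0 passed under the main design, and 0 without the replicate block, with quantile normalization, within-list percentiles, a −log10 q of at least 5, peaks covering at least 50% of the region (8 regions left), equal list lengths (9 left) or, added after the data were seen, no trend of the spread. Scaling by background pileup gave 2 (Cdkn1a at -8809 bp, 0.91, and the Arf start, 0.78), the fold column gave 1 (Cdkn2d at -18015 bp, 0.5), and leaving out 1 library gave 0 to 2: besides the Cdkn1a regions of the report these were Cdkn1b at +6900 bp without LSK+ WT replicate 2 and the Faf1 start beside Cdkn2c without LSK- XistΔ/Δ replicate 2. Background scaling reversed Cdkn1a at the start (0.0157), in the intron (0.11) and at +13620 bp (0.0853), Cdkn1b (0.41), Cdkn1c (0.22), Cdkn2b (0.26), Cdkn2c (0.31) and Cdkn2d (0.14), and the genotype difference of Cdkn2b (0.0208). The fold column reversed Cdkn1a at +13620 bp (0.13). Cdkn1b was reversed by quantile normalization (0.19), percentiles (0.94 points), 50% cover (0.0846) and equal lists (0.0443), and the Cdkn2b genotype difference by percentiles (7.04 points); the cause was not tested. Leaving out 1 library gave -0.22 to 0.11 for Cdkn1b, -0.44 to 0.0595 for Cdkn2b and, for its genotype difference, -0.52 to 0.00572. For XistΔ/Δ against WT and for the difference between cell types, 0 member regions passed under every alternative run, the replicate block removed included. Over all 21360 regions, calls between cell types fell from 7763 to 6456 with background scaling, 989 without the block, 3701 with the fold column and 1493 with percentiles. They numbered 1926 of 8032 with 50% cover and 3879 of 14311 with equal lists. Without 1 library they ran from 3642 of 21381 to 9669 of 21531. Genotype calls fell from 37 to 0 without the block, 18 with background scaling, 15 with the fold column, 9 with percentiles, 15 with 50% cover and 21 with equal lists, rose to 56 without the trend and ran from 7 to 131 without 1 library. Calls for the difference of the genotype effect numbered 0, at most 2 under the other settings and 0 to 51 without 1 library.

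Member regions separated between cell types numbered 3 of 25 (10909 of 60447 over all regions). They numbered 1 of 23 with 50% cover (4512 of 41949 over all regions) and 1 of 18 with equal lists (8218 of 29561). Ranked by fold, 5 of 25 separated (10678 of 60447). With the replicate block (same sign in 4 of 4 pairs), 7 of 25 did (20103 of 60447). Without 1 library, 3 to 7 of 23 to 25 member regions separated (9530 to 18677 of 50621 to 59502 over all regions). Those separated between genotypes numbered 3 of 25 (8431 of 60447 over all regions). They numbered 2 of 23 with 50% cover (3943 of 41949) and 1 of 18 with equal lists (662 of 29561). Ranked by fold, 1 of 25 separated (6597 of 60447), and with the replicate block 7 of 25 did (20083 of 60447). Without 1 library, 3 to 9 of 23 to 25 member regions separated (9134 to 16417 of 50621 to 59502 over all regions). The share of peaks in the windows differed by 0.281 per 10000 between cell types (-0.265 to 0.827 without 1 library, reversed without LSK+ WT replicate 2 or LSK- WT replicate 1) and by -0.85 between genotypes (-1.4 to -0.304); with the labels exchanged within pairs, as the replicate block asks, the exact permutation p was 0.5 and 0.25. Depth sets the limits: the shortest list had 29829 peaks, and a region absent from it can be present below the threshold.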
